A study of Mus musculus with 2 samples.

Results

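The 37 genes of hepatic glucose output, glycolysis, glycogen turnover, sugar entry and insulin signalling were compared between livers of Yap+/+ and Yap+/- mice. They were taken by gene symbol: every probe set annotated with exactly one of these symbols was used, and the brightest of them, by its mean on the 2 arrays, stood for its gene. This gave 34 genes of the 18193 on the array, with 72 probe sets in all. Pfkfb1, Eno1 and Gpi1 were not analysed here, because no probe set used here carried those symbols alone. The 34 genes fall into 8 genes of gluconeogenesis and its regulators, 11 of glycolysis and pyruvate use, 3 of sugar entry, 9 of glycogen metabolism and 3 of insulin signalling.

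Liver RNA came from untreated animals of both genotypes on postnatal day 30. Yap+/- animals carry 1 intact copy of Yap1, which encodes a transcriptional co-activator that Hippo kinases hold in check. The line had been crossed to C57BL/6 over 6 or more generations. The labels leave unstated how the allele was disrupted, which sex the animals were, at what hour they were killed and whether they had been fed. Livers of 5 mice per genotype were combined into 1 pool, and each pool was measured on 1 Affymetrix array, so the values below have no replicate, no error and no test of genotype. Values are on the log2 scale made by the authors, and a difference is always Yap+/- minus Yap+/+. All 34 genes passed the minimum mean log2 value of 6 that defines a measured gene, as did 9299 genes of the array.

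The liver stores glucose as glycogen after a meal and releases glucose between meals, by breaking glycogen down and by making glucose from lactate, glycerol and amino acids. Both routes end in glucose 6-phosphate, which glucose-6-phosphatase in the endoplasmic reticulum turns into free glucose. Insulin, acting through its receptor and the adaptors IRS1 and IRS2, drives the kinase AKT, which keeps the transcription factor FOXO1 out of the nucleus. FOXO1, with the co-activator PGC-1alpha, activates genes of gluconeogenesis as well as Irs2, and glucagon acts on the same genes through cyclic AMP.

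The promoters of 4 of the genes are shown, because these genes are textbook targets of insulin or encode its adaptors, and because they differ in what the arrays read. G6pc had the largest difference of the group, Pck1 is the other regulated gene of glucose production, and Irs1 and Irs2 were the most lowered of the insulin signalling genes. Each stretch runs 5' to 3' from 250 bases before to 50 bases after the RefSeq start site, from the GRCm38.p6 assembly. Capitals mark matches to any of the motifs searched on both strands.
G6pc, chr11:101367466-101367765, plus strand: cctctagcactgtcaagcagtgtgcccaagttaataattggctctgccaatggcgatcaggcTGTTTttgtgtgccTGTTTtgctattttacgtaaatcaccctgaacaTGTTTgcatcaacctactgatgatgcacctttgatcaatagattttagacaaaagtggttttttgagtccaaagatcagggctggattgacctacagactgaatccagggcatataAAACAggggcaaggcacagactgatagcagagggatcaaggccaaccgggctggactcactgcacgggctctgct
Pck1, chr2:173152823-173153122, plus strand: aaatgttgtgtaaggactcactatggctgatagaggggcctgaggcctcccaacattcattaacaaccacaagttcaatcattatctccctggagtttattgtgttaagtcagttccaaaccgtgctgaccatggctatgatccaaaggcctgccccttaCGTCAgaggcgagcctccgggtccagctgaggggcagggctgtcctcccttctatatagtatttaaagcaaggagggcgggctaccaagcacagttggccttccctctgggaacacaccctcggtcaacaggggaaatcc
Irs1, chr1:82291390-82291689, minus strand: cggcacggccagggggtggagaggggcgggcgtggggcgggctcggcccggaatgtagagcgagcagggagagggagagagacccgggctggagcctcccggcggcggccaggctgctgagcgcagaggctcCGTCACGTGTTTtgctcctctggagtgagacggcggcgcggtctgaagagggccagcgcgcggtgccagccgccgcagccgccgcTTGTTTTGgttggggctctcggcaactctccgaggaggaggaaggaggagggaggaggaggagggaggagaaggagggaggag
Irs2, chr8:11008880-11009179, minus strand: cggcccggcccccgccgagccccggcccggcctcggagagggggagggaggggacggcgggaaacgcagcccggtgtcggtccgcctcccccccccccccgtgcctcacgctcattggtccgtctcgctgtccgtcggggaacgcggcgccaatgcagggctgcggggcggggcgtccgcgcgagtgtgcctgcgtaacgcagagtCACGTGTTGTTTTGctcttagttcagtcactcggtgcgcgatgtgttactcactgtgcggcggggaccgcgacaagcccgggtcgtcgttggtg

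The motifs were the FOXO element GTAAACA, the insulin response sequence CAAAACAA, the cyclic AMP response element TGACGTCA and its core TGACG, the E-box CACGTG and the forkhead core AAACA. The cyclic AMP core lies within the full cyclic AMP element, and the forkhead core lies within both the FOXO element and the insulin response sequence. Positions are counted with 0 at the first transcribed base. Irs1 and Irs2 each held the insulin response sequence, read as TTGTTTTG, at -33 to -26 and -38 to -31. Each also held an E-box, at -115 to -110 in Irs1 and at -44 to -39 in Irs2, where it directly precedes the insulin response sequence. The G6pc stretch held the forkhead core 4 times, at -188 to -184, -174 to -170, -141 to -137 and -25 to -21. It held no exact match to the other motifs, and near matches were not searched in any promoter. The cyclic AMP core, read as CGTCA, was in Pck1 at -90 to -86 and in Irs1 at -118 to -114. Irs1 also held a forkhead core at -111 to -107, outside its insulin response sequence.

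RefSeq promoters were found for 34 of the 37 genes, 50 stretches in all. The insulin response sequence was in 3 of them, those of Irs1, Irs2 and Pck2, which is 6% against 2.51% of all 32851 promoters of this length. E-boxes were in 9 of the 50 stretches, or 18%, against 7.15% of all promoters, and the genes included Khk, Ldha, Pcx, Pdk2 and Pfkfb3 besides the Irs genes. The cyclic AMP core was in 26% of the stretches and 20.8% of all promoters. The full cyclic AMP element was found only in Ldha among the genes with a promoter, against 1.79% of all promoters. The FOXO element was in 0 of 50 against 3.65%, and the forkhead core in 30% against 50.5%. Promoters of one gene can overlap, and a match of letters is a description only.

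The median difference of the 34 genes was close to 0, and 1 of them differed by 2-fold or more. G6pc was the only member at least 2-fold lower in Yap+/-, 2.94% of the members, against 0.226% of all measured genes. No member was at least 2-fold higher, a size reached by 0.0968% of all measured genes. At a size of 1.5-fold, G6pc was again the only member lower, with 0.645% of all genes lower by that much. Foxo1 was the only member higher by 1.5-fold, with 0.699% of all genes. Over the 34 genes 15 read higher and 19 lower, and the median difference was -0.0077, beside 0.00 over all 9299 genes, of which 4542 were higher and 4610 lower. A single gene makes a share of nearly 3% here, so these shares are coarse. The members were also chosen with earlier results of these data known, which limits the comparison with all genes.

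For scale, where a gene has several measured probe sets, the differences of its 2 brightest disagreed by 0.17 (robust SD, 3406 genes), and 22 of the 34 members lay within that size of 0. This figure covers noise within the pair of arrays and says nothing of the spread between mice or pools. The median absolute difference was 0.12 over the members and 0.099 over all measured genes. An absolute difference under 0.5 was found for 88.2% of the members and 98.0% of all measured genes. The 4 members outside it were G6pc, Foxo1, Irs2 and Ppargc1a, the last at 0.50.

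**Figure D1:**
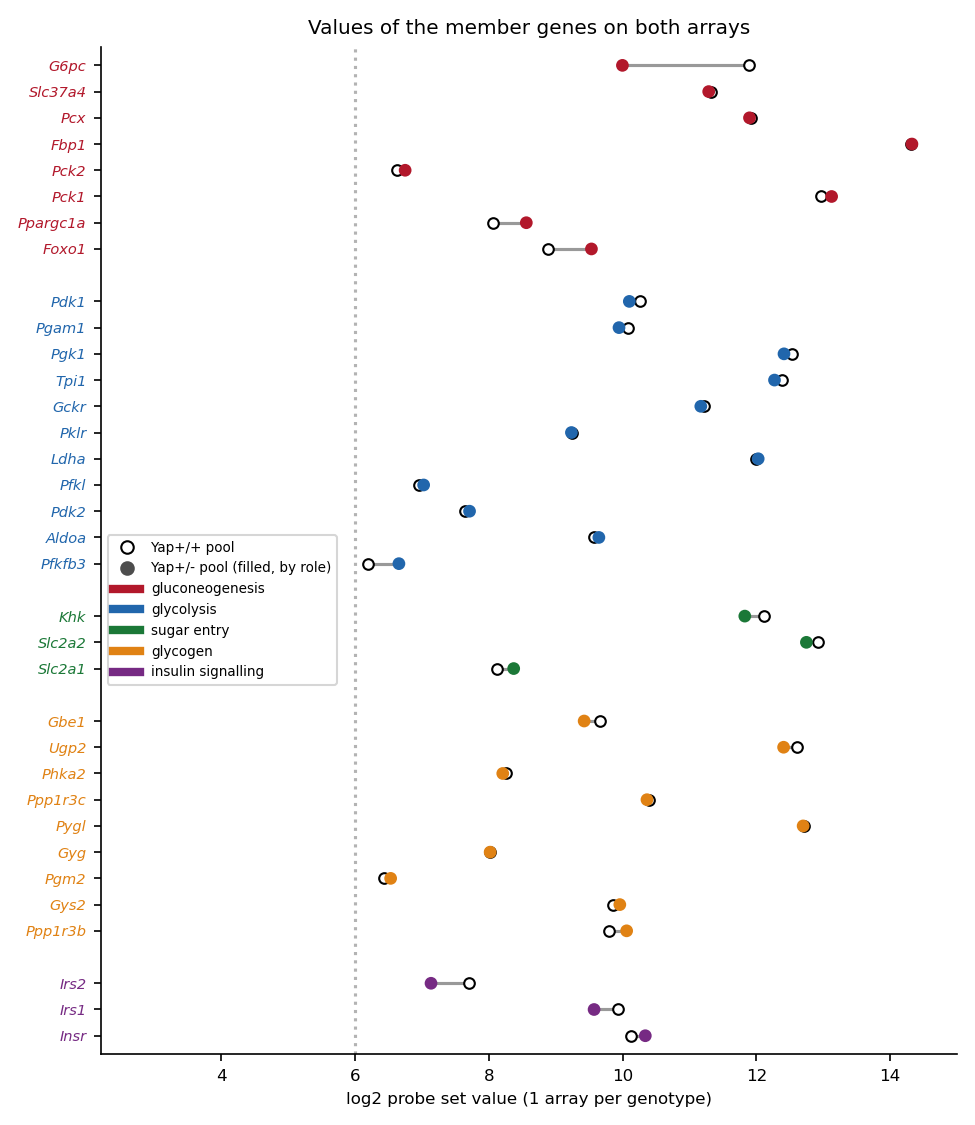
Log2 probe set value of each analysed member on both arrays, with genes grouped and coloured by role (open circle, Yap+/+ pool; filled circle, Yap+/- pool; dotted line, the minimum mean of 6). G6pc is the only gene with a wide gap, from 11.90 to 10.00, while most pairs of circles touch.

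Depth cannot be given for arrays, and precision is limited by their number. The brighter Yap1 probe set read 9.40 in the Yap+/+ pool and 9.24 in the Yap+/- pool, and the other read 6.01 and 5.77. Their place relative to the disrupted part is unstated, so they are a weak check of the labels. The tissue label was borne out by 9 hepatocyte markers with a probe set, all with a mean of 12.2 or more, and their summed linear signal was 171600 in Yap+/+ and 173830 in Yap+/-. Markers of other cells were less even. All 12 Kupffer cell and macrophage markers read higher in Yap+/-, with a summed signal of 10073 against 12640, and 6 of 8 endothelial markers did, with 4198 against 4961. Bile duct markers were lower in 7 of 8, with 848 against 601. Of these 8 markers, 6 fell below the minimum mean that defines a measured gene, 2 of them under the table's median. Stellate and smooth muscle markers were lower in 7 of 9, with 6779 against 6246. Neutrophil markers were higher in 5 of 7, with 178 against 314. Of these 7 markers, 6 fell below that minimum, 5 of them under the table's median. In bulk liver, more cells of a type and more RNA per cell cannot be told apart.

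The gluconeogenesis group had 5 of 8 genes higher and a median of 0.072, and glucose-6-phosphatase and its transporter came apart. G6pc, the catalytic subunit that releases free glucose, read 11.90 in the Yap+/+ pool and 10.00 in the Yap+/- pool. This difference of -1.90, or 3.73-fold lower, was the 8th lowest of the 9299 measured genes, and both values were far above the table's median of about 4.9. Among the 500 measured genes nearest in mean value the robust SD of the difference was 0.11. G6pc has 1 probe set on this array, so no second reading exists. Slc37a4, the transporter that brings glucose 6-phosphate to that enzyme, read 11.31 and 11.29, a difference of -0.028.

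The enzymes upstream of G6pc showed no such gap. Pck1, the cytosolic phosphoenolpyruvate carboxykinase that commits oxaloacetate to glucose, read 12.96 and 13.12 on its bright probe set, 1.12-fold higher. Its second measured probe set, with a suffix for shared targets, read 8.02 and 7.68, a difference of -0.34, so the readings of Pck1 disagree in sign. Pck2, the mitochondrial form, read 6.62 and 6.75. Fbp1, the fructose bisphosphatase that opposes phosphofructokinase, read 14.31 and 14.33, close to the top of the scale, 15.15, where differences are compressed. Pcx, pyruvate carboxylase, which starts the pathway from pyruvate, read 11.91 and 11.90. Of the 6 enzymes and transporters of gluconeogenesis here, G6pc alone therefore differed by more than 0.17 on the brightest probe set.

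The 2 regulators among the members, Foxo1 and Ppargc1a, read higher in Yap+/-. Foxo1, the insulin-restrained activator, read 8.88 in Yap+/+ and 9.53 in Yap+/-, a difference of 0.65 or 1.57-fold, the 44th highest of 9299 genes. That probe set carries a suffix for shared targets. Its other measured probe sets read 7.78 and 8.18, 1.32-fold higher, and 6.85 and 7.32, 1.39-fold higher. The fourth, near background, read 3.66 on both arrays. All 3 measured probe sets thus ran the same way, while the 1.5-fold size was reached by the brightest only.

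Ppargc1a, which encodes PGC-1alpha, had 5 measured probe sets, all higher in Yap+/-. The brightest read 8.06 in Yap+/+ and 8.56 in Yap+/-, 1.42-fold higher and 98th from the top. The other probe sets differed by 0.27, 0.32, 0.39 and 0.80. Foxo1 and Ppargc1a therefore had the best repeated readings among the genes that read higher, while G6pc, a gene both factors are known to activate, read lower. Repeat probe sets share 1 RNA pool and are not replicates of a genotype.

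**Figure D2:**
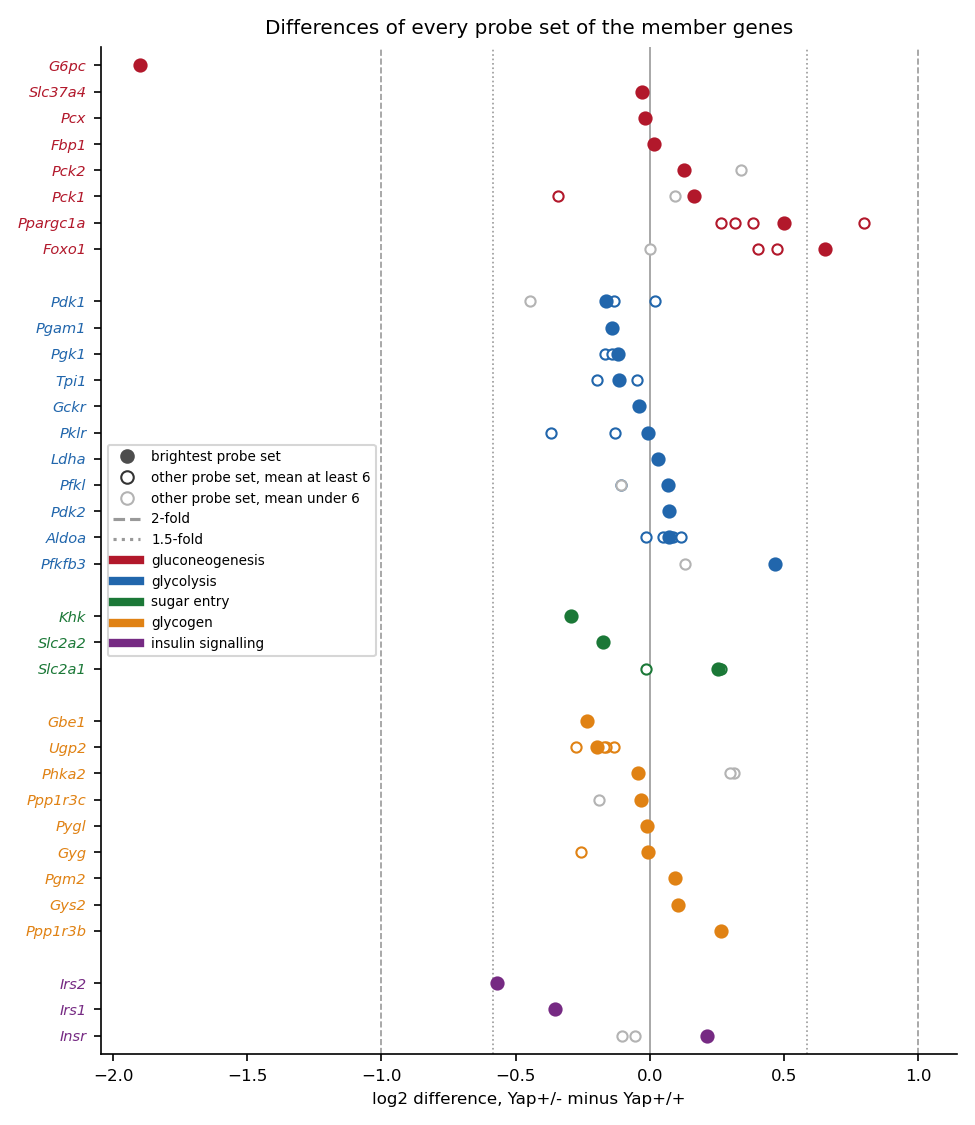
Log2 difference, Yap+/- minus Yap+/+, of every probe set of the members, by gene (filled circle, brightest probe set; open circles, other probe sets, in grey where the mean is under 6; dashed and dotted lines, 2-fold and 1.5-fold). All 5 probe sets of Ppargc1a lie to the right of 0 and all 5 of Ugp2 to the left, whereas those of Pck1 lie on both sides.

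Both adaptors of the insulin receptor read lower in Yap+/-. Insr, the insulin receptor, read 10.12 in Yap+/+ and 10.34 in Yap+/-, 1.16-fold higher, with 2 further probe sets near background at differences of -0.10 and -0.054. With the mean of all its probe sets the difference of Insr was 0.019. Irs1, an adaptor that couples the receptor to phosphoinositide 3-kinase, read 9.92 and 9.57, 1.28-fold lower. Irs2, the adaptor that is itself a FOXO1 target, read 7.70 and 7.13, a difference of -0.57 or 1.48-fold lower. Irs2 was the 67th lowest and Irs1 the 236th lowest of 9299 genes. Each Irs gene has 1 probe set, so neither reading is repeated. Irs2 lay just outside the 1.5-fold size, a log2 difference of 0.58, and Foxo1 just inside it.

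Glycolysis genes were nearly level, with 5 of 11 higher, 6 lower and a median of -0.0062. Gckr, the nuclear protein that holds back the liver's main hexokinase, read 11.21 and 11.17. Pfkl, the liver phosphofructokinase, read 6.96 and 7.02, with another measured probe set at -0.11. Pklr, the liver pyruvate kinase, read 9.24 and 9.23 on its brightest probe set, and its dimmer ones differed by -0.13 and -0.37. The last of these lay at the minimum, at 6.18 and 5.82. On their brightest probe sets the regulated steps of glycolysis thus differed by less than 0.17.

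Of the shared enzymes of the lower pathway, Tpi1 and Pgk1 read slightly lower on repeated probe sets. Tpi1, triosephosphate isomerase, was lower on all 3 probe sets, with differences of -0.12, -0.20 and -0.047. Pgk1, phosphoglycerate kinase, was also lower on all 3, between -0.17 and -0.12, from 12.53 to 12.41 on the brightest. Pgam1, phosphoglycerate mutase, read 10.09 and 9.95. Aldoa, the aldolase of muscle and most other tissues, read 9.57 and 9.64 and was higher on 4 of 5 probe sets. Ldha, the lactate dehydrogenase subunit, read 11.99 and 12.03. Each of these 5 genes differed by less than 0.17 on its brightest probe set.

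Pfkfb3 had the largest difference in the glycolysis group. It is an inducible enzyme that makes the main activator of phosphofructokinase, and it read 6.19 in Yap+/+ and 6.65 in Yap+/-, 1.38-fold higher. Both values lie near the minimum, and its other probe set, near background, differed by 0.13. Adding 64 to the linear signal lowered the difference of Pfkfb3 to 0.27. The pyruvate dehydrogenase kinases, which restrain the entry of pyruvate into the citric acid cycle, differed little. Pdk1 read 10.26 and 10.10, with its other measured probe sets at 0.020 and -0.13, and Pdk2 read 7.64 and 7.71.

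Sugar entry genes of hepatocytes read lower and the widely expressed glucose transporter higher. Slc2a2, the glucose transporter GLUT2 of hepatocytes, read 12.92 in Yap+/+ and 12.75 in Yap+/-, 1.13-fold lower. Khk, ketohexokinase, which phosphorylates fructose, read 12.12 and 11.83, 1.22-fold lower and 386th from the bottom. Slc2a1, the transporter GLUT1, read 8.12 and 8.37, 1.19-fold higher. Its second probe set differed by 0.26 and the third by -0.014, and with only probe sets free of a shared-target suffix its direction was the other one. Slc2a1 and Pfkfb3 are both expressed in non-parenchymal cells, and all 12 macrophage markers were higher in the same pool, with a median of 0.29. Their part in these values was not tested.

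Glycogen genes had 3 of 9 higher, 6 lower and a median of -0.0092. The enzymes that run in opposite directions were both level. Gys2, the liver glycogen synthase, read 9.85 and 9.96, and Pygl, the liver glycogen phosphorylase, read 12.71 and 12.70. Ugp2, which makes the UDP-glucose that glycogen synthase uses, was lower on all 5 of its probe sets, with differences from -0.27 to -0.13 and values of 12.60 and 12.41 on the brightest. Gbe1, the branching enzyme, read 9.66 and 9.42, 1.18-fold lower on 1 probe set. Gyg, glycogenin, the protein primer of glycogen, read 8.02 on both arrays, while its other probe set read 6.94 and 6.69. Pgm2, a phosphoglucomutase family member, read 6.44 and 6.53.

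Among the regulators of glycogen, Ppp1r3b read higher. It encodes the subunit that brings protein phosphatase 1 to glycogen in liver and read 9.80 in Yap+/+ and 10.06 in Yap+/-, 1.20-fold higher on 1 probe set. Ppp1r3c, a related targeting subunit, read 10.40 and 10.36. Phka2, a regulatory subunit of the liver phosphorylase kinase, read 8.25 and 8.21, and its probe sets near background differed by 0.31 and 0.30 in the other direction. The spread within the glycogen group, from -0.24 to 0.26, was narrow beside that of the gluconeogenesis group, from -1.90 to 0.65. Both ends of that wider range are single genes, G6pc and Foxo1.

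**Figure D3:**
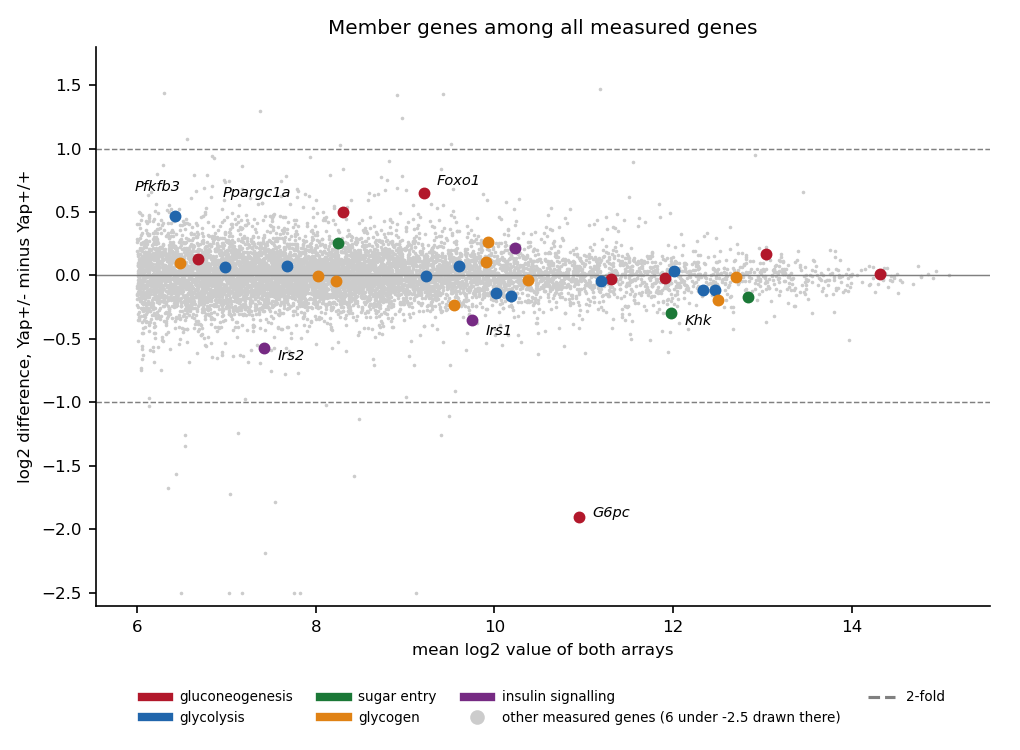
Log2 difference against the mean log2 value of both arrays for all 9299 measured genes (grey), with the members coloured by role and the most different ones named (dashed lines, 2-fold; 6 genes under -2.5 are drawn at the lower edge). G6pc lies below the 2-fold line at -1.90, and the other members lie between -0.57 and 0.65.

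Where several measured probe sets exist, 12 members, 7 ran in 1 direction throughout (Foxo1, Ppargc1a, Pklr, Tpi1, Pgk1, Ugp2 and Gyg) and 5 were mixed (Pck1, Pfkl, Aldoa, Pdk1 and Slc2a1). The dimmest measured probe set had a lower difference than the brightest in 9 of the 12, with a median of -0.13. Over 3406 genes of the array with several measured probe sets this was so in 56.0%, with a median of -0.030. Control probe sets along the Pcx transcript gave the same kind of reading. The one at the 3' end read 11.58 and 11.56, level between the arrays like the gene's own probe set, whereas those of the middle and the 5' end differed by -0.40, -0.17 and -0.23 at values near 6. The excess of 3' over 5' signal was larger in Yap+/- by 0.21 for Pcx, 0.22 for Gapdh and 0.20 for beta-actin. It differed by -0.035 for the transferrin receptor, near background, and by -0.53 for 18S ribosomal RNA, which has no poly(A) tail. Pcx, Gapdh and beta-actin thus ran the same way, and the transferrin receptor and 18S RNA did not. The 18S probe sets themselves all read lower in Yap+/-, with differences of -1.42 at the 3' end, -0.91 in the middle and -0.89 at the 5' end. The part of the 3' excess in the differences of dim probe sets was not tested, nor was that of the 18S difference.

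Other genes of the same pathways, from lists of textbook members, were mostly level too. Of 21 further gluconeogenic enzymes and regulators, 19 were measured, 10 higher and 7 lower, 0 by 1.5-fold, with a median of 0.015. Foxo3, a relative of Foxo1, read 9.01 in Yap+/+ and 9.57 in Yap+/-, 1.47-fold higher, and was higher on both of its measured probe sets. Cebpb, a hormone-responsive transcription factor, was 1.31-fold higher. Got1, the cytosolic aspartate aminotransferase, was 1.37-fold lower, and Slc25a11, the oxoglutarate carrier of mitochondria, 1.29-fold lower.

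Of 31 other genes of glycolysis and pyruvate use, 17 were measured, with 8 higher, 9 lower and a median of -0.014. Arrdc4, a glucose-induced arrestin-like gene, was 1.35-fold lower, although its second measured probe set differed by only -0.046, and Pfkm, the muscle phosphofructokinase, was 1.21-fold lower. Pdk4, the kinase raised by fasting, read 6.77 and 7.01, 1.19-fold higher, and Hk3, a hexokinase of myeloid cells, was 1.17-fold higher. None of the 17 differed by 1.5-fold. Hk3 ran with the macrophage markers, whose part was not tested.

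Of 14 other genes of sugar entry 7 were measured, 6 of them lower, with a median of -0.020. Slc2a5, the fructose transporter GLUT5, was 1.26-fold lower, from 6.39 to 6.05, and Slc2a4, GLUT4, was 1.10-fold lower, both near the minimum. Tkfc, the triokinase that follows Khk in fructose use, was 1.07-fold higher. No difference in this list reached 1.5-fold. The pentose phosphate pathway, which branches from glucose 6-phosphate to make NADPH, had 5 of 7 measured genes lower and a median of -0.14. Tkt, transketolase, was 1.17-fold lower and Pgd, phosphogluconate dehydrogenase, 1.13-fold lower on its brightest of 4 probe sets, all of which were lower. H6pd, the glucose 6-phosphate dehydrogenase of the endoplasmic reticulum, was 1.20-fold higher.

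Among 23 other glycogen genes 14 were measured, 9 lower and 5 higher, with a median of -0.063. Ppp1r3g, a targeting subunit of protein phosphatase 1, went from 6.64 to 5.90, which is 1.68-fold lower, and was the only one past 1.5-fold. The lower value is not shown to be above background. Pygb, the brain form of glycogen phosphorylase, was 1.33-fold lower, from 6.68 to 6.27. Ppp1cb, a catalytic subunit of protein phosphatase 1, was 1.19-fold higher and was higher on all 4 measured probe sets.

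Of 30 other insulin signalling genes 23 were measured, 13 higher and 9 lower, 0 by 1.5-fold, with a median of 0.0098. Ptpn1, the phosphatase that switches the receptor off, read 8.21 and 8.54, 1.25-fold higher, and Grb10, an adaptor that inhibits the receptor, was 1.19-fold higher. Trib1, a pseudokinase, was 1.20-fold lower. Pik3r1, the regulatory subunit of phosphoinositide 3-kinase, was 1.17-fold lower on its brighter probe set and higher by 0.081 on the other.

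Genes known to be repressed by insulin in liver, other than the members, had a median of 0.0064 over 8 measured genes, 4 higher and 4 lower. Igfbp1, an IGF-binding protein and a standard FOXO1 target, read 13.22 in Yap+/+ and 12.85 in Yap+/-, 1.29-fold lower. Tat, tyrosine aminotransferase, was 1.16-fold lower. Asns, asparagine synthetase, was 2.11-fold higher, from 6.02 to 7.10, and Trib3 was 1.22-fold higher. With 64 added to the linear signal, a minimum of 7 or the mean of all probe sets, 0 genes of this list were 2-fold higher. Asns and Trib3 are also targets of the amino acid response factor ATF4. Genes that FOXO1 is known to activate did not run 1 way. G6pc, Irs2 and Igfbp1 were lower, while Pdk4 and Insr differed by 0.25 and 0.21. Mttp and Apoc3 differed by 0.027 and -0.050, and Pck1 by 0.17 on its brightest probe set and -0.34 on its second. These genes were gathered after their values were seen, and the set is not exhaustive.

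Genes known to be raised by insulin had 8 of 10 measured members lower and a median of -0.15. All 8 lower ones are also in the lipogenesis list given below, and the other measured ones, Angptl8 and Egr1, are not. Thrsp, a lipogenic nuclear protein, was 1.52-fold lower and Me1, malic enzyme, 1.37-fold lower, each on all of its measured probe sets. Angptl8, a circulating protein raised by feeding, was 2.69-fold higher, from 8.71 to 10.14, and Egr1, an immediate early gene, was 1.40-fold higher. Neither of the insulin lists ran in 1 direction throughout. The feeding state of the animals is unstated, and its part in these values was not tested.

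Set beside 3 other metabolic lists, the members had the widest range and a median near 0. They are 34 measured genes against 16 or 17 in each other list, so the ranges are not like for like. The low end of their range is G6pc alone, on 1 probe set. Of the lipogenesis genes 13 of 17 were lower, at a median of -0.056, with Thrsp and Me1 lowest and Fads1 highest at 0.12. The 13 include all 8 lower genes of the list raised by insulin, so both counts share the same readings. Fatty acid oxidation and ketogenesis were split evenly, 8 of 16 lower, at a median of -0.00065, within -0.16 and 0.25. Amino acid breakdown had 14 of 17 lower, at a median of -0.099, with Got1 lowest, then Gldc at -0.29, and Cbs highest at 0.17. None of these lists held a gene at 2-fold. With 1 pool per genotype, no difference between lists was tested.

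**Figure D4:**
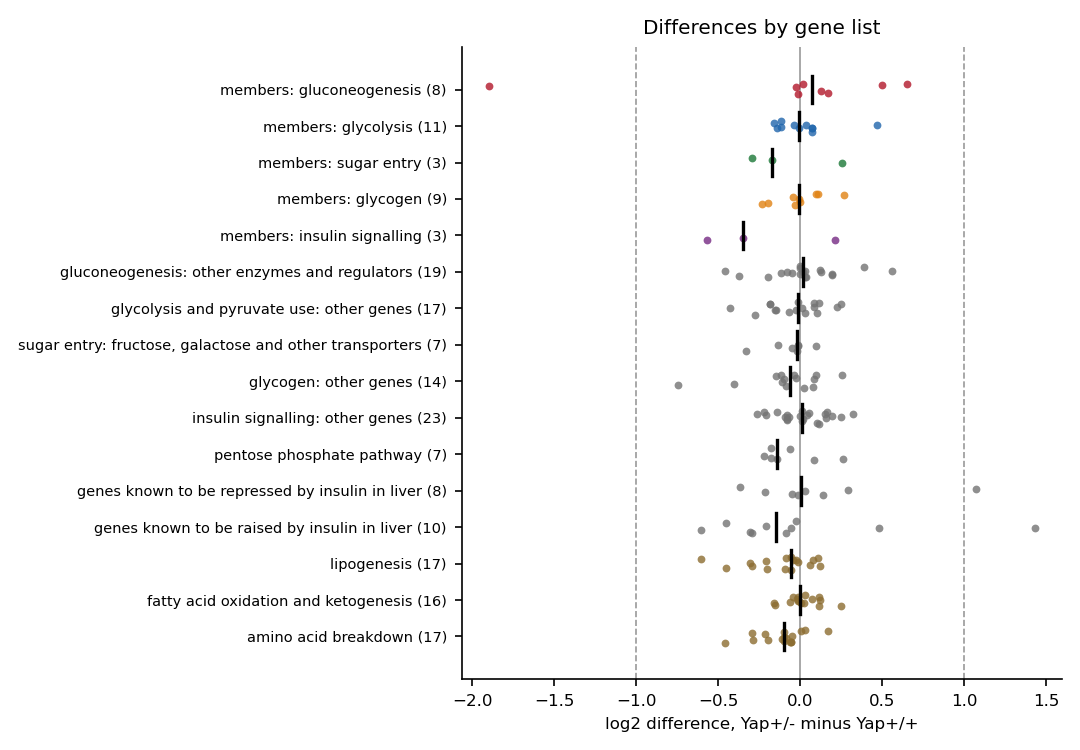
Log2 difference of each measured gene (dots) and the median (black bar) for the members by role, the other pathway lists (grey) and 3 further metabolic lists (brown), with the number of measured genes in brackets and dashed lines at 2-fold. Medians lie between -0.35 and 0.072, and dots beyond 2-fold are G6pc on the left and Asns and Angptl8 on the right.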

How the data were processed

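The authors deposited 1 value per probe set and array on the log2 scale. RMA, a method of background correction, quantile normalisation and probe summary, and the program Partek 6.5 are named, without settings, per the submitters' processing notes. The sorted columns differed by at most 0.047, so an overall shift between the pools would largely be removed. Of 45101 probe sets, 34945 with exactly 1 symbol in the platform annotation were used. The 932 with several symbols, 9160 with none listed and 64 array controls were left out of gene values.

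Genes were compared by the log2 difference between the genotypes, with sizes of 1.5-fold and 2-fold and no test. Genes named beyond the members are up to 2 per direction of each list with the largest difference, and Igfbp1 and Pdk4. Another gene fixed by that rule is not analysed here. Mttp and Apoc3 were named outside the rule, for the statement on genes that FOXO1 is known to activate. Members and lists were chosen with earlier results of these data known. The forkhead core was added as a motif after the promoters were read. Counting was tested on simulated data. Work was done in Python 3.11.15 with pandas 2.3.3 and numpy 2.4.6, figures in matplotlib 3.10.9 and the lowess trend in statsmodels 0.14.6.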

Additional observations from a re-analysis of the deposited data

How the results depend on the processing

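The alternatives changed the minimum (none, or 7), the probe sets (their mean, or only those without a shared-target suffix), the scaling (median centring, lowess removal, 64 added to the linear signal), the size (1.5-fold, 3-fold) and left out each list's most different member. G6pc stayed between -1.90 and -1.84 under all of those that recompute genes. Without G6pc, 0 members and 0 gluconeogenesis genes were 2-fold lower, and at the 1.5-fold size 1 member and 1 gluconeogenesis gene, Foxo1, was higher instead of 0. Without its most different gene the sugar entry median was 0.041 and the insulin signalling median -0.069, each over 2 genes. These follow from leaving out 1 of 3 genes. Foxo1 was 0.38 with the mean of all probe sets and 0.40 without suffixes, under 1.5-fold in both. Insr fell from 0.21 to 0.019 with the mean of all probe sets, which brings in 2 near background. With the mean of all probe sets Pck1, Pfkl and Phka2 changed sign, and without suffixes Pfkl, Pdk1 and Slc2a1 did, so their directions are not settled. Lowess removal turned Pygl alone, which lay at -0.0092. The median of all measured genes moved to -0.010 at most. Leaving out a replicate could not be tried with 1 array per genotype. No paired analysis was possible because each genotype has a single array.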
